A study of Drosophila melanogaster with 6 samples.

Results

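The retinal determination genes other than dac, namely ey, toy, so, eya, Optix, dan, danr and gl, were examined in RNA from larval leg discs of Drosophila melanogaster. The 8 genes were taken by name from the network that specifies the fly eye. All 8 were found among the 17612 genes of the deposited count table, and all 8 had enough counts to be tested. The samples fall into 2 groups, which are leg discs labelled Double, for which the series gives only a deletion of Polycomb response elements (PREs, DNA elements that recruit Polycomb repressors), and wild-type leg discs, labelled WT. Each group has 3 libraries, each made from 20 third-instar discs of flies kept at 25 °C. No label gives the deleted elements or the alleles, or says whether replicates came from separate crosses, so the p-values speak only of how much these libraries vary, which can include technical variation.

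The network is known best from the eye-antennal disc. The Pax6 proteins Toy and Ey switch on so and eya, whose products bind each other as a homeodomain protein and its co-activator, and the members then activate one another. Several of these genes can induce ectopic eyes in leg discs when they are forced on. In wild-type discs outside the head many of them are regarded as Polycomb targets held at low levels, which is why their level in leg discs with deleted PREs is of interest.

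All 8 genes averaged at least 0.5 CPM (counts scaled to library size, with TMM factors) in each group, but most stood low. Per kilobase of exon, so was the most abundant, at 18.2 ± 1.52 CPM per kb in Double and 18.2 ± 1.15 CPM per kb in WT (SD, n = 3 each). eya came next, at 4.0 ± 1.2 CPM per kb in Double and 6.93 ± 2.15 CPM per kb in WT, and its library values overlapped those of neither so nor toy in either group. toy was the third in order, at 1.61 ± 1.43 CPM per kb in Double and 4.32 ± 0.69 CPM per kb in WT. The other members lay between 0.306 CPM per kb for dan and 1.01 CPM per kb for danr in Double, and between 1.30 CPM per kb for dan and 2.39 CPM per kb for gl in WT. In Double every neighbour in the order from toy downward had overlapping library values. In WT the neighbours from toy downward overlapped except danr over Optix and Optix over ey.

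Of the 8 genes, 7 had a lower mean in Double than in WT, and so did not, where 49.9% of all tested genes had a log2 fold change below 0. None of the 8 passed the test at an adjusted p under 0.05 in edgeR's quasi-likelihood test, in which 131 of 8802 genes (1.49%) were called. At an unadjusted p under 0.05 stood 5 members, ey, eya, Optix, dan and danr, all lower in Double, a class that held 6.27% of all tested genes (12.3% in either direction). The groups did not overlap, with every Double library under every WT library, for 6 members, ey, toy, Optix, dan, danr and gl, against 9.11% of all tested genes. The same 6 had a log2 fold change at or below -1, against 4.34% of tested genes. The median log2 fold change was -1.55 over the 8 members and 0.00044 over all tested genes. DESeq2 called 1 member, Optix (adjusted p = 0.04965), and it called 1.85% of the 10289 genes with an adjusted p lower in Double, while limma-voom called no member. Since whole discs were sequenced, fewer cells that express a gene and less RNA per cell cannot be told apart.

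**Figure D1:**
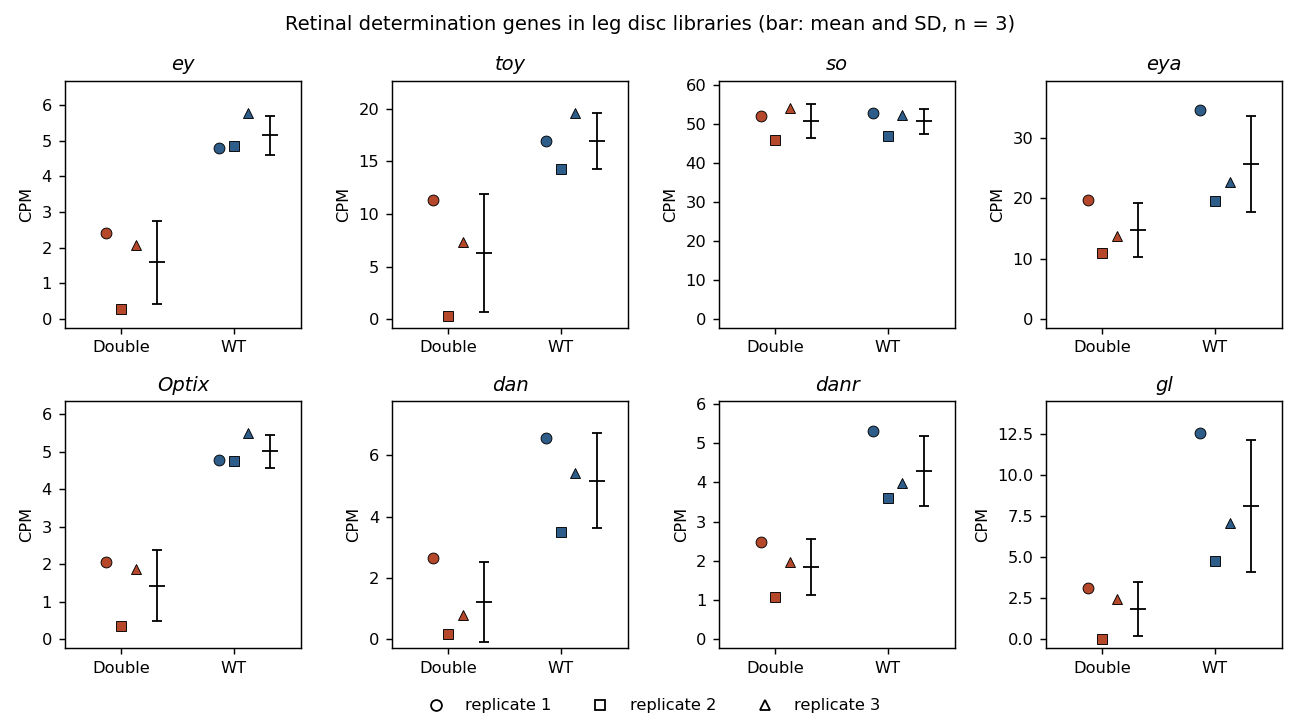
CPM of each retinal determination gene in the 3 Double and the 3 WT libraries, with a marker shape for each replicate number and the mean with its SD beside each group (n = 3). In 6 of the 8 panels every Double library lies below every WT library, eya overlaps at 19.6 CPM, and so is level at 45.9 to 54.1 CPM.

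The Pax6 genes were low in Double replicate 2 above all. toy (twin of eyeless), which acts upstream of ey in the eye, lies on the plus strand of chromosome 4 at 989725 to 1007922 (dm6). It read 11.4, 0.271 and 7.35 CPM in Double replicates 1, 2 and 3, against 16.9, 14.2 and 19.6 CPM in WT replicates 1, 2 and 3. The groups did not overlap, but Double replicate 1 came within 1.25-fold of the lowest WT library while Double replicate 2 had only 3 counts. The mean of toy was 62.7% lower in Double, with a log2 fold change of -1.42 (SE 1.01; edgeR adjusted p = 0.639).

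ey (eyeless), the Pax6 gene whose loss removes the eye, lies 269 kb away on the same strand of chromosome 4, at 697689 to 721173. It read 2.41, 0.271 and 2.09 CPM in the Double libraries, against 4.79, 4.86 and 5.79 CPM in the WT libraries, in replicate order. The 3 WT libraries agreed within 1.21-fold, and the lowest of them was 1.99-fold above the highest Double library. The log2 fold change of ey was -1.69 (SE 0.62; edgeR adjusted p = 0.327). The 3 counts of ey in Double replicate 2 give an exact Poisson 95% interval of 0.0559 to 0.793 CPM, which covers counting error only and lies below every other library.

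The toy and ey counts kept a similar proportion in most libraries. toy had 4.71, 1.00 and 3.52 counts per count of ey in Double replicates 1, 2 and 3, and 3.54, 2.93 and 3.39 in WT replicates 1, 2 and 3. The ratio of Double replicate 2 rests on 3 counts of each gene.

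Of the next layer of the network so was level, while eya and Optix had lower means in Double. so (sine oculis) encodes the homeodomain protein that binds Eya, and lies on the plus strand of 2R at 7419350 to 7434872. It read 52.0, 45.9 and 54.1 CPM in Double, against 52.7, 46.9 and 52.2 CPM in WT. The whole range over the 6 libraries was 1.18-fold, and the groups overlapped. For so the log2 fold change came to 0.00086 (SE 0.09; edgeR adjusted p = 0.997), and its sign depended on the setting. The 4 annotated genes that overlap so on the opposite strand had at most 2 counts in any library and share no exon bases with it.

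eya (eyes absent) encodes the co-activator and protein phosphatase that partners So, and lies on the minus strand of 2L at 6527447 to 6546976. It is 9.92 Mb from dac on the same arm. It read 19.6, 10.9 and 13.7 CPM in Double, against 34.5, 19.6 and 22.6 CPM in WT. The highest Double library just overlapped the lowest WT library, and WT replicate 1 stood above the rest. The mean was 42.3% lower in Double, with a log2 fold change of -0.80 (SE 0.29; edgeR adjusted p = 0.336), and -0.51 without WT replicate 1. The count of so per count of eya was 2.65, 4.20 and 3.95 in the Double libraries, and 1.52, 2.40 and 2.31 in the WT libraries, so that all 3 Double libraries lay above all 3 WT libraries. The nearest values were 2.65 and 2.40, and since so was level the ratio largely restates the values of eya. How often ratios of other genes separate the groups was not computed.

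Optix, a homeodomain gene of the same family as so, acts in the eye and head and lies on the plus strand of 2R at 8031283 to 8042529, 596 kb from so. It read 2.06, 0.362 and 1.89 CPM in Double, against 4.79, 4.75 and 5.51 CPM in WT. The lowest WT library was 2.30-fold above the highest Double library, the widest gap of the 8 genes. The log2 fold change of Optix stood at -1.80 (SE 0.55; edgeR adjusted p = 0.219), the smallest adjusted p of the 8. Optix tracked ey closely, at 0.857, 1.33 and 0.905 counts per count of ey in Double and 1.00, 0.977 and 0.953 in WT.

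dan and danr (distal antenna and distal antenna-related) encode nuclear proteins with a Pipsqueak DNA-binding motif that act in antennal identity and in early eye specification. They lie 44.5 kb apart on the plus strand of 3R, dan at 25184383 to 25192806 and danr at 25138072 to 25139903. dan read 2.67, 0.181 and 0.794 CPM in Double, against 6.56, 3.50 and 5.42 CPM in WT. The groups did not overlap, and Double replicates 2 and 3 had only 2 and 8 counts. The log2 fold change of dan was -2.07 (SE 0.76; edgeR adjusted p = 0.335). Without Double replicate 1 it was -3.40, and without Double replicate 2 it was -1.56.

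danr read 2.50, 1.08 and 1.99 CPM in Double, against 5.30, 3.62 and 3.98 CPM in WT. It was low but present in Double replicate 2, at 12 counts, with the groups again apart. For danr the log2 fold change came to -1.21 (SE 0.40; edgeR adjusted p = 0.256). dan had 1.07, 0.167 and 0.40 counts per count of danr in Double replicates 1, 2 and 3, and 1.24, 0.969 and 1.36 in WT. The proportion was thus level in WT and in Double replicate 1, and lower in Double replicates 2 and 3, where the dan counts are few.

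gl (glass) encodes a zinc finger protein needed for photoreceptor differentiation and acts late in the network. It lies on the minus strand of 3R at 18367927 to 18372738. It read 3.10, 0 and 2.48 CPM in Double, against 12.5, 4.75 and 7.05 CPM in WT. The 0 counts of Double replicate 2 allow up to 0.271 CPM, taking 3 counts as the limit of a count of 0, and WT replicate 1 was 2.64-fold above WT replicate 2. The mean of gl was 77.1% lower in Double, with a log2 fold change of -2.12 (SE 1.08; edgeR adjusted p = 0.509).

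Double replicate 2 was the lowest of the 6 libraries for all 8 genes, which held for 15.7% of all tested genes. It had 5 members under 0.5 CPM, ey, toy, Optix, dan and gl, and no other library had any. The sum over the 7 members other than so was 43.7, 13.1 and 30.3 CPM in Double replicates 1, 2 and 3, against 85.5, 55.3 and 70.0 CPM in WT replicates 1, 2 and 3. eya was the largest part of this sum in every library, and made up 10.9 CPM of it in Double replicate 2. Without Double replicate 2 the log2 fold changes of ey, toy, eya, Optix, dan, danr and gl were -1.19, -0.85, -0.62, -1.34, -1.56, -0.94 and -1.54, with edgeR adjusted p values of 0.225 to 0.584, none past the threshold. All 7 were lower in Double here too. For the 6 whose groups do not overlap, leaving out a library cannot turn the sign, so this is no separate support. The SE of toy was 0.23 in place of 1.01 and that of gl 0.45 in place of 1.08.

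**Figure D2:**
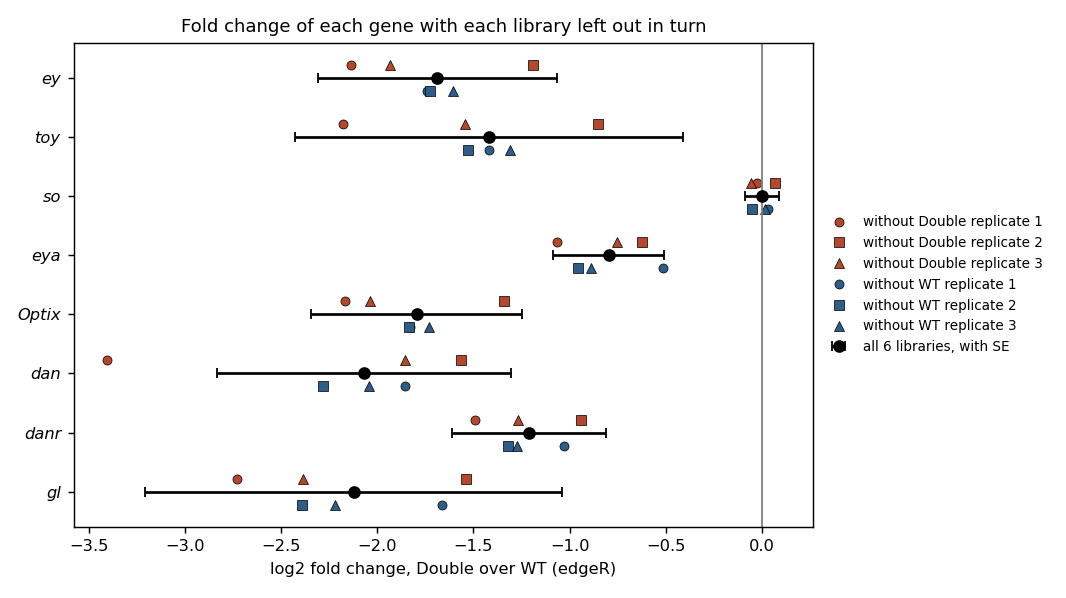
The log2 fold change of Double over WT for each gene, with its SE from all 6 libraries in black and the value with each library left out in colour. The points of 7 genes lie to the left of 0 in every case, and those of so lie between -0.056 and 0.067. Where the groups do not overlap, leaving out a library cannot turn the sign.

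The 7 members other than so varied together over the libraries. Their 21 pairs had Pearson correlations of log2 CPM of 0.787 to 0.996 over the 6 libraries, whose depth and tissue content all genes of a library share, and 0.558 to 1.00 once the group means were removed. The 7 pairs with so had correlations of 0.421 to 0.626, and of 0.671 to 0.876 once the group means were removed, which lies within the range of the other pairs. These are descriptions over few libraries. Double replicate 2, the lowest library for all 8 genes, enters every one of these correlations, and none was computed without it. The closest pair was ey with Optix, at 0.996. By the same measure the 3 tested genes most like each member were named. For ey they were Optix, CG14483 and Ddc, which encodes dopa decarboxylase, and for Optix they were ey, Ddc and Muc91C. For toy they were ltl, NLaz and Irp-1A, and for gl CG31676, CG10340 and Ldh. For dan they were CG1812, superdeath and tmod, and for danr dare, CG6005 and lncRNA:CR33938. For eya they were SP1029, sev, which encodes the receptor of the R7 photoreceptor fate, and asRNA:CR45481. For so they were CG15912, CG8854 and CG4984, which averaged 0.918 to 1.64 CPM in each group. The correlations of these genes lay between 0.967 and 0.997, and between 25 and 69 tested genes exceeded 0.95 for each of the 7 members, against 5 for so.

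Ddc, the gene outside the network that came up for a pair of members, read 1.92 ± 1.13 CPM in Double and 6.91 ± 0.53 CPM in WT (SD, n = 3 each). Its log2 fold change of -1.84 did not pass (edgeR adjusted p = 0.135). sev read 9.66 ± 3.06 CPM in Double and 15.9 ± 3.77 CPM in WT (SD, n = 3 each), which is -0.72 on the log2 scale (edgeR adjusted p = 0.314). Both genes came up here through a high correlation with members over the same libraries, with the group difference left in. Their lower means in Double therefore follow from that choice and are no separate result.

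Of the tested genes that border or overlap a member, 1 passed the test, lobo, which overlaps dan. The neighbours of ey are myo, with a log2 fold change of -0.05, and bt, a muscle titin gene 3.23 kb away on the same strand. bt read 16.7, 2.98 and 8.54 CPM in Double and 2.50, 5.88 and 6.24 CPM in WT, a log2 fold change of 0.96 (edgeR adjusted p = 0.617). PlexA beside toy, CG11123 beside so, CG31637 beside eya and Nup43 beside gl had log2 fold changes of 0.10, 0.03, -0.04 and 0.16, none past the test (edgeR adjusted p = 0.589 to 0.94). CG12769 beside Optix had 1.33 (edgeR adjusted p = 0.311). The other bordering genes, among them fuss beside toy and all those beside dan and danr, had too few counts to be tested.

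dan lies inside the span of lobo, a gene for a sperm flagellar protein on the opposite strand, at 25169565 to 25193776. lobo had 0, 1 and 1 counts in Double replicates 1, 2 and 3, against 33, 13 and 28 counts in WT. This corresponds to 0.063 ± 0.055 CPM in Double and 2.14 ± 0.59 CPM in WT (SD, n = 3 each). lobo fell in Double, with a log2 fold change of -4.90 (SE 0.77; edgeR adjusted p = 0.02096). The call was lost without each Double library and without WT replicates 2 and 3 in turn (edgeR adjusted p = 0.0565 to 0.112), with log2 fold changes of -5.29 to -4.36. dan and lobo share no annotated exon bases. In Double replicate 1 lobo had 0 counts where dan read 2.67 CPM, but such low counts resolve no pattern of lobo within Double. In WT both were lowest in replicate 2, with lobo at 2.43, 1.47 and 2.53 CPM and dan at 6.56, 3.50 and 5.42 CPM in replicate order. Whether the 2 genes are linked was not tested. Whether the counting used the strand of the reads is not stated in the labels. If reads were counted over exons, only those lying outside the annotated exons of their own gene could have been assigned to the wrong gene of the pair.

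Among 12 tested partners and regulators of the network 1 passed edgeR's test, dac, which was lower in Double, while 6 of the 12 had a log2 fold change above 0 and 6 below. dac, which encodes the nuclear protein that closes the network in the eye and patterns the leg, read 414.0 ± 4.38 CPM in Double and 597.6 ± 16.2 CPM in WT (SD, n = 3 each; log2 fold change -0.53, edgeR adjusted p = 0.003869), and its call was lost without Double replicate 3 (edgeR, 0 of the 12 called). The median of the list was -0.0040. A further 3 stood at an unadjusted p under 0.05, all with higher values in Double, namely eyg, toe and Hipk. For this list and those below, the share of all tested genes at an unadjusted p under 0.05 was 12.3%. Over all genes edgeR called 1.49%, DESeq2 312 of the 10289 with an adjusted p, and limma-voom 120 of 8802. eyg and toe, a pair of Pax genes that act in eye growth, read 24.6 ± 2.14 and 12.5 ± 1.53 CPM in Double and 18.9 ± 2.58 and 9.26 ± 1.49 CPM in WT (SD, n = 3 each). On the log2 scale they differed by 0.38 and 0.43 between the groups (edgeR adjusted p = 0.272 and 0.372), in the opposite direction to ey and toy, a difference that was not tested. Of 11 tested relatives in the families of Pax, so and Pipsqueak genes none passed in edgeR, DESeq2 or limma-voom, with 3 at an unadjusted p under 0.05 and a median of 0.18. gsb-n was 1 of these 3, with a log2 fold change of 0.34 (edgeR adjusted p = 0.302). Six4, the remaining gene of the so family, had 0 counts in all libraries.

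The signals that act upstream of the network in the eye gave no call. Of 13 tested genes of the Hedgehog, Dpp, Wingless, Notch and EGFR pathways none passed in edgeR, DESeq2 or limma-voom, 1 stood at an unadjusted p under 0.05, and the log2 fold changes ranged from -0.17 to 0.15 with a median of 0.045. The smallest p values were those of Mad, the Dpp effector, at 128.0 ± 0.46 CPM in Double and 115.4 ± 1.48 CPM in WT, and of N, the Notch receptor, at 1269 ± 10.5 CPM in Double and 1153 ± 85.0 CPM in WT (SD, n = 3 each; edgeR adjusted p = 0.309 and 0.492).

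Of 27 genes of retinal differentiation 13 could be tested, and none passed in edgeR, DESeq2 or limma-voom. At an unadjusted p under 0.05 stood 4, of which sev, lz and oc had lower and norpA higher values in Double, and the median was -0.058. norpA, which encodes the phospholipase C of phototransduction, had the smallest p of the list, at 176.1 ± 7.63 CPM in Double and 149.5 ± 15.2 CPM in WT (edgeR adjusted p = 0.303). The rhodopsin gene ninaE did not exceed 0.221 CPM in any library, ro did not exceed 0.884 CPM, and trp and Rh3 had 0 counts throughout. Of 13 tested genes of antennal and leg identity none passed in the same 3 tools, with 4 at an unadjusted p under 0.05 and a median of -0.025. Dll and Scr had the smallest p values, with log2 fold changes of 0.24 and -0.25 (edgeR adjusted p = 0.292 and 0.304).

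Other regulators of body parts and cell fates were set beside the 8 genes. Of 9 wing and notum selector genes none passed in edgeR, DESeq2 or limma-voom, 2 stood at an unadjusted p under 0.05, and the median was -0.060. The 2 were pnr and tup, with log2 fold changes of -0.79 and -0.97 (edgeR adjusted p = 0.213 and 0.383). Of 15 embryonic and neural regulators known as Polycomb targets, 8 could be tested, none passed in those tools or stood at an unadjusted p under 0.05, and the median was 0.15. en and kni had the smallest p, with log2 fold changes of 0.17 and 0.21 (edgeR adjusted p = 0.451 and 0.496). No test compared these lists with the retinal determination genes.

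**Figure D3:**
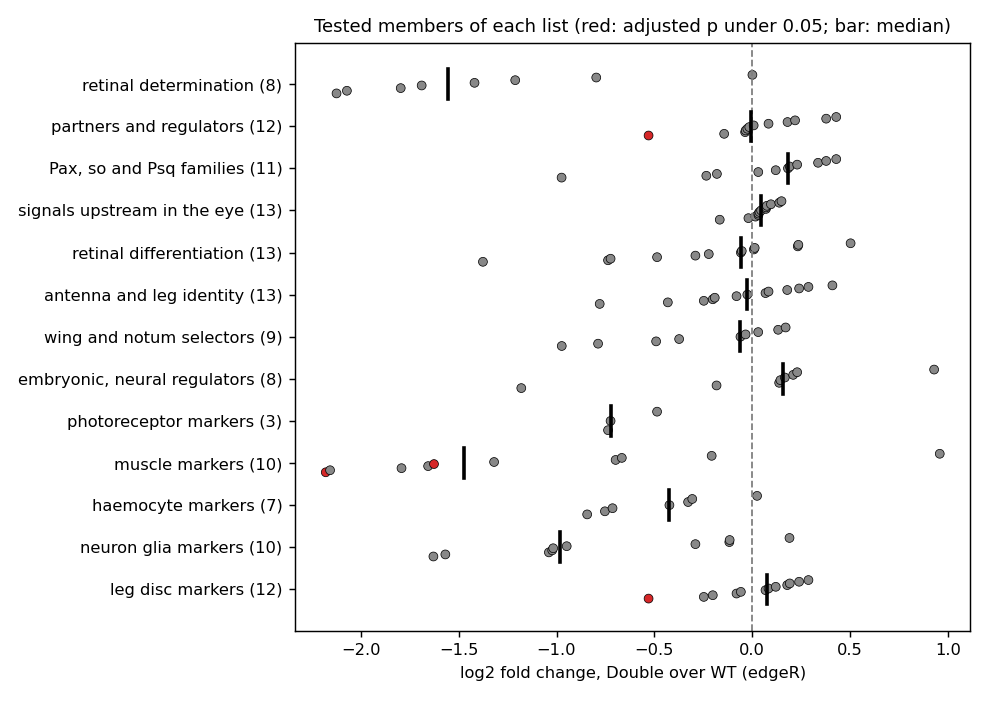
The log2 fold change of Double over WT for every tested member of each list, with the number tested in brackets, the list's median as a bar and the median of all tested genes as a dashed line. The retinal determination genes have a median of -1.55, and the muscle markers, at -1.47, have the nearest median of the lists drawn.

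The markers of tissues that dissected discs could carry were read beside these values. The leg disc markers summed to 2662 to 2750 CPM in Double and 2819 to 2913 CPM in WT. dac was the 1 of 12 that was called, and it enters these sums with means of 414.0 CPM in Double and 597.6 CPM in WT. Of the 12 markers 7 had a log2 fold change above 0, with a list median of 0.076, and sums without dac were not computed. The photoreceptor markers, 10 genes of which 5 stayed under 1 CPM in every library and trp at 0, summed to 33.0, 18.4 and 22.8 CPM in Double replicates 1, 2 and 3 and to 46.6, 33.5 and 35.8 CPM in WT. This is the order of the libraries by the sum of the 7 members, but none of the 3 tested markers had that order alone. sev, for example, read 12.99 CPM in Double replicate 1 and 12.77 CPM in WT replicate 2. The share of all tested genes with that order was not computed. Of the 3 photoreceptor markers tested, sev, lz and chp, none passed in edgeR, DESeq2 or limma-voom, 2 stood at an unadjusted p under 0.05, and all 3 had lower means in Double. These markers are a part of the 27 genes of retinal differentiation, and the phototransduction genes norpA and ninaC of that list, which are not among them, had values in the other direction, with log2 fold changes of 0.24 and 0.50 (edgeR adjusted p = 0.303 and 0.625). lz read 4.0 ± 0.78 CPM in Double and 6.64 ± 1.83 CPM in WT (SD, n = 3 each; edgeR adjusted p = 0.370). The muscle markers summed to 64.0, 35.8 and 45.5 CPM in Double and to 91.6, 71.3 and 63.6 CPM in WT. Of the 10 muscle markers 9 had a log2 fold change below 0, and bt went the other way, at 0.96 (edgeR adjusted p = 0.617). Lower in Double at an unadjusted p under 0.05 stood 6 of the 10, against 6.27% of all tested genes. Of these 6, 2 fell by the test, up and Mp20, with log2 fold changes of -1.63 and -2.18 (edgeR adjusted p = 0.0437 and 0.0384). Over all tested genes edgeR called 0.943% as lower. DESeq2 called 3 of the 10 muscle markers and limma-voom 1. The neuron and glia markers summed to 87.5 to 148.3 CPM in Double and 93.2 to 215.1 CPM in WT, with a log2 fold change below 0 for 9 of 10 and a median of -0.98, and the haemocyte markers to 205.2 to 236.7 CPM in Double and 250.0 to 349.9 CPM in WT. The myoblast markers summed to 255.2 to 280.6 CPM in Double and 277.1 to 296.3 CPM in WT, and the trachea markers to 1167 to 1347 CPM in Double and 1148 to 1357 CPM in WT. None of the 10 neuron and glia, 7 haemocyte, 6 myoblast or 5 trachea markers passed in edgeR, with 0, 3, 0 and 1 at an unadjusted p under 0.05, and DESeq2 called 0, 1, 0 and 1 of them and limma-voom none. The fat body markers summed to 3296 to 13650 CPM in Double and 202.7 to 6855 CPM in WT. The salivary gland markers summed to 831.2 to 2853 CPM in Double and 10.1 to 2670 CPM in WT. WT replicate 1 was the lowest library for both sums, at 202.7 and 10.1 CPM. WT replicates 2 and 3 read 6855 and 4797 CPM for fat body, and 64.8 and 2670 CPM for salivary gland. None of 8 tested markers of either tissue passed in edgeR, with 2 at an unadjusted p under 0.05 in each list, and DESeq2 called 1 and 2 while limma-voom called none. The part of any of these tissues in the values of the retinal determination genes was not tested.

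**Figure D4:**
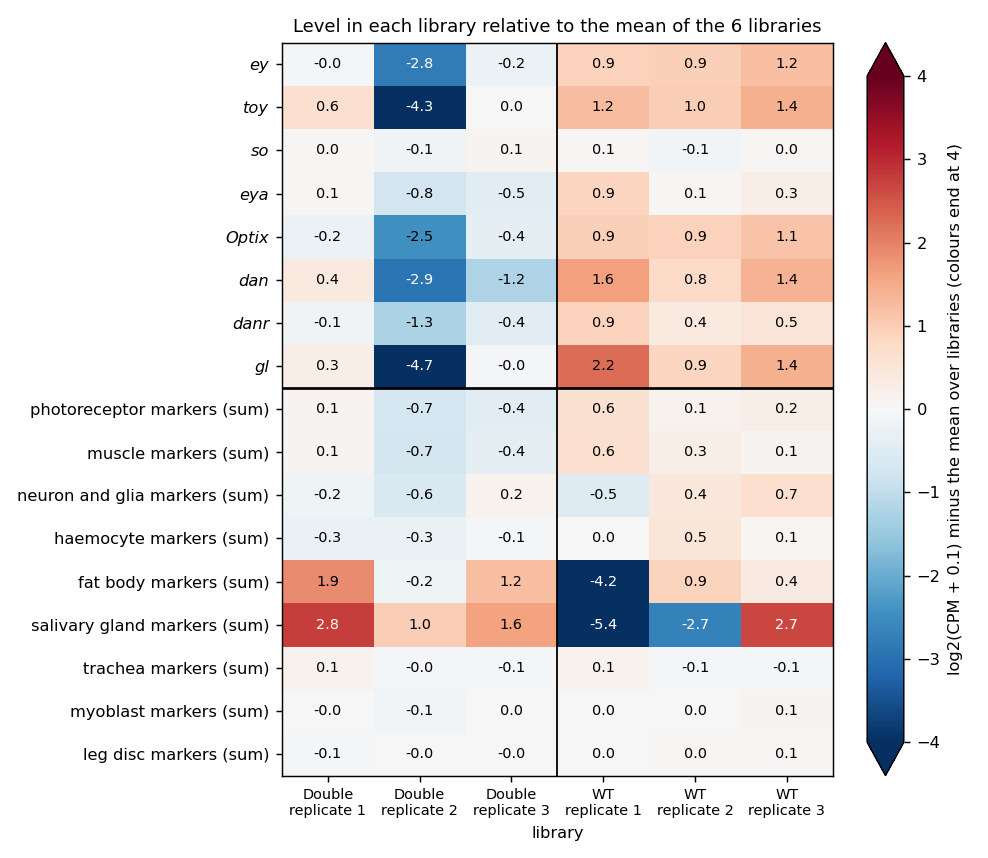
Level of each retinal determination gene, and of the summed markers of each tissue, in each library as log2(CPM + 0.1) minus its mean over the 6 libraries, with values printed in the cells. Double replicate 2 reads -4.7 for gl and -4.3 for toy, the row of so stays between -0.14 and 0.10, and the summed markers of photoreceptors (-0.7), muscle (-0.7), neurons and glia (-0.6), haemocytes (-0.3) and myoblasts (-0.1) are also lowest in that library.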

How the data were processed

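The authors deposited raw counts (whole numbers, 1 row per gene) for 3 Double and 3 WT libraries of poly-A RNA, sequenced strand-specifically as 150-base paired-end reads, per the labels' protocols. STAR 2.7.0, HTSeq, DESeq2 and dm6 are named, with no role or order, per the submitters' processing notes; the sources used here give neither the annotation release nor the strand setting. Totals ranged from 8818943 to 13605668 counts, so that 1 count equals 0.0737 to 0.113 CPM. Within groups, every pair of replicates differed beyond counting noise (9.49 to 38.8 chi-square units for each degree of freedom).

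Positions and exon lengths came from Ensembl release 115 (BDGP 6.54, dm6 coordinates), and symbols matched 17540 of 17612 genes. Double was tested against WT with edgeR 4.0.16 (R 4.3.3; quasi-likelihood F test, robust fit, TMM factors, filterByExpr, no covariate), with Benjamini-Hochberg adjustment over 8802 genes and a threshold of 0.05. The fit was tested on simulated data, where 7.59% of its calls were false, above the 5% aimed at. It called 70.7% of simulated 2-fold falls and 85.7% of 4-fold falls. These rates are over genes of all levels and not for the low counts of most members. SE values are the size of the log2 fold change over the root of F. CPM per kb is TMM-scaled CPM over the annotated exon length. Correlations used log2 CPM with a prior count of 2. Intervals and floors cover counting error only.

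The members and the 17 gene lists, with 158 of 159 distinct names matched, were chosen with earlier results of these data known. The genes named are all members, the called members of each list or its 2 with the smallest p, genes overlapping or bordering a member, and the 3 genes most like each member; others were chosen after their values were seen. Alternatives were RLE factors, library totals, no filter, a CPM filter, DESeq2 1.42.0, limma-voom (limma 3.58.1), a replicate block, an adjusted p under 0.01, detection limits of 0.2 and 1 CPM, and each library left out. Tables and figures were made with Python 3.11.15, pandas 2.3.3 and matplotlib 3.10.9.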

Additional observations from a re-analysis of the deposited data

How the results depend on the processing

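The 7 members other than so had a log2 fold change below 0 in all 91 values from 13 alternatives. All these values rest on the same libraries, and where the groups do not overlap a library left out cannot turn the sign. Of the 91 values 2 passed the threshold, Optix with DESeq2 (adjusted p = 0.04965) and eya with the replicate block (adjusted p = 0.0133; -0.79 on the log2 scale). The number of members called was therefore 1 with DESeq2 and 1 with the replicate block, and 0 otherwise. The sign of so turned with RLE factors (-0.0018), library totals (-0.010), no count filter (-0.011), DESeq2 (-0.0025) and limma-voom (-0.0068), and without Double replicate 1 (-0.027), Double replicate 3 (-0.056) and WT replicate 2 (-0.050), all within 1 SE of 0, and its value ranged from -0.056 to 0.067 with a library left out. Over all genes 131 were called, against 312 with DESeq2, 54 at an adjusted p under 0.01, 166 with the replicate block, and 46 (without Double replicate 3) to 157 (without WT replicate 1) with a library left out. The partner list had 0 to 1 called members with a library left out, with dac lost without Double replicate 3. Lists of upstream signals and retinal differentiation had 0 in every setting run. By the group mean, all 8 members were detected in each group at 0.2 and at 1 CPM. This does not hold for each library, since dan in Double read 2.67, 0.181 and 0.794 CPM and gl had 0 counts in Double replicate 2. Same-numbered libraries deviated together for number 3 (r = 0.389, the best match of each of those 2 libraries) but not for numbers 1 and 2 (r = -0.0706 and -0.251), so the numbers were not taken as pairs. With 3 or fewer counts for several members in Double replicate 2, its differences among them are not resolved at this depth.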
